A study of Rattus norvegicus with 8 samples.

Results

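Fast skeletal muscle genes were followed in Achilles tendon RNA as a set of 34 genes chosen by name, and 29 of them were found under those symbols among the 32883 Ensembl genes of the deposited table. All 29 had enough reads to be tested, and *Myh2*, *Myh4*, *Tcap*, *Ttn*, and *Atp2a1* were not analysed here. The samples were right Achilles tendons of wild-type male Sprague-Dawley rats, 8 to 10 weeks old, with 1 polyadenylate mRNA library per rat. 4 of the rats (12 h p.r.) ran on a treadmill for 1 hour and were killed 12 hours later, and in the naïve control group (NC), 4 rats rested in cages and were killed at the same time. RNA was extracted from the pulverized tissue, so a library holds the RNA of every cell type in the piece. In such bulk samples, fewer muscle fibers and less RNA per fiber cannot be told apart. Between 7350509 and 12951397 reads were counted per rat.

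Skeletal muscle contracts when thick filaments of myosin pull on thin filaments of actin, which are anchored at the Z disc. Calcium released from the sarcoplasmic reticulum binds troponin on the thin filament and starts the pull, and phosphocreatine and glycogen supply the energy. Fast-twitch and slow-twitch fibers use different isoforms of many of these proteins, whereas skeletal α-actin, nebulin, desmin, and several other proteins are found in both. The Achilles tendon joins the gastrocnemius, plantaris, and soleus muscles to the heel bone, and tenocytes themselves do not build sarcomeres. The members are described by role, from thick and thin filaments over the Z disc and calcium handling to energy supply.

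The members took more of the library in 1 running rat than in any other. Their reads made up 0.497% (95% interval 0.492 to 0.502%), 0.377% (95% interval 0.373 to 0.382%), 7.92% (95% interval 7.90 to 7.93%), and 0.487% (95% interval 0.483 to 0.491%) of all counted reads in 12 h p.r. replicates 1 to 4. In NC replicates 1 to 4 they made up 0.525% (95% interval 0.521 to 0.529%), 1.37% (95% interval 1.36 to 1.38%), 1.75% (95% interval 1.74 to 1.75%), and 0.356% (95% interval 0.352 to 0.359%). The intervals are exact binomial (Clopper-Pearson) and cover counting error only. Thus 12 h p.r. replicate 3 was 4.54 times as high as the next rat, NC replicate 3, and held 56.8% of the member reads of all 8 rats. The mean share was 2.32% ± 3.73 (SD, n = 4) at 12 h p.r. and 0.999% ± 0.666 (SD, n = 4) in NC, and without 12 h p.r. replicate 3 the running mean was 0.454% ± 0.0665 (SD, n = 3). The 3 other running rats lay within 1.32 times of each other, while the NC rats, with none left out, spanned 4.91 times. This evenness is that of the sum, since single members spanned from 1.12 times (*Trdn*) to 45.3 times (*Actn3*) over the same 3 rats.

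**Figure D1:**
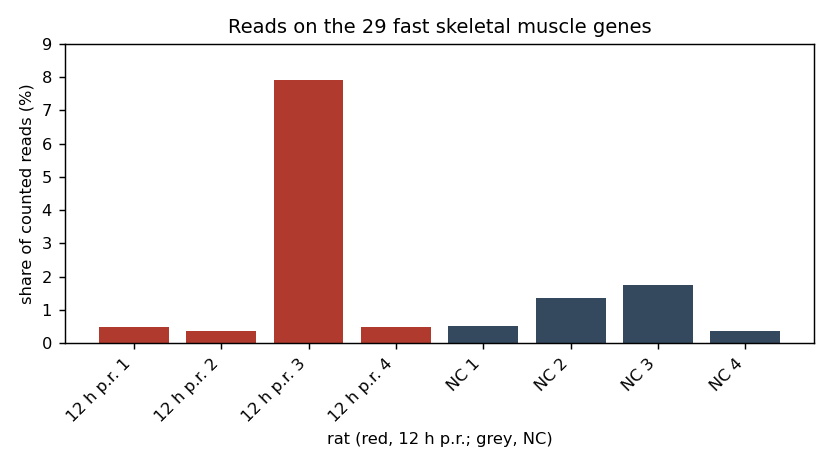
Share of all counted reads (percent) that fell on the 29 fast skeletal muscle genes, 1 bar per rat, with running rats (12 h p.r.) in red and caged control rats (NC) in grey. The bar of 12 h p.r. replicate 3 reaches 7.92%, and the other 7 rats lie between 0.356 and 1.75%.

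Levels of single genes are given as CPM, read counts scaled to equal library size, with library sizes corrected by TMM (trimmed mean of M values). Of the 29 members, 27 were highest in 12 h p.r. replicate 3, as were 21.7% of all genes tested. In these 27 members the rat stood 2.18 to 7.86 times above the next rat (median, 5.07 times), and that next rat was NC replicate 3 in 21 and NC replicate 2 in 6. The exceptions were *Mb* and *Mybpc1*, which were highest in NC replicate 2. At the low end, 13 members were lowest in NC replicate 4, 6 in 12 h p.r. replicate 1, 6 in 12 h p.r. replicate 4, and 4 in 12 h p.r. replicate 2.

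**Figure D2:**
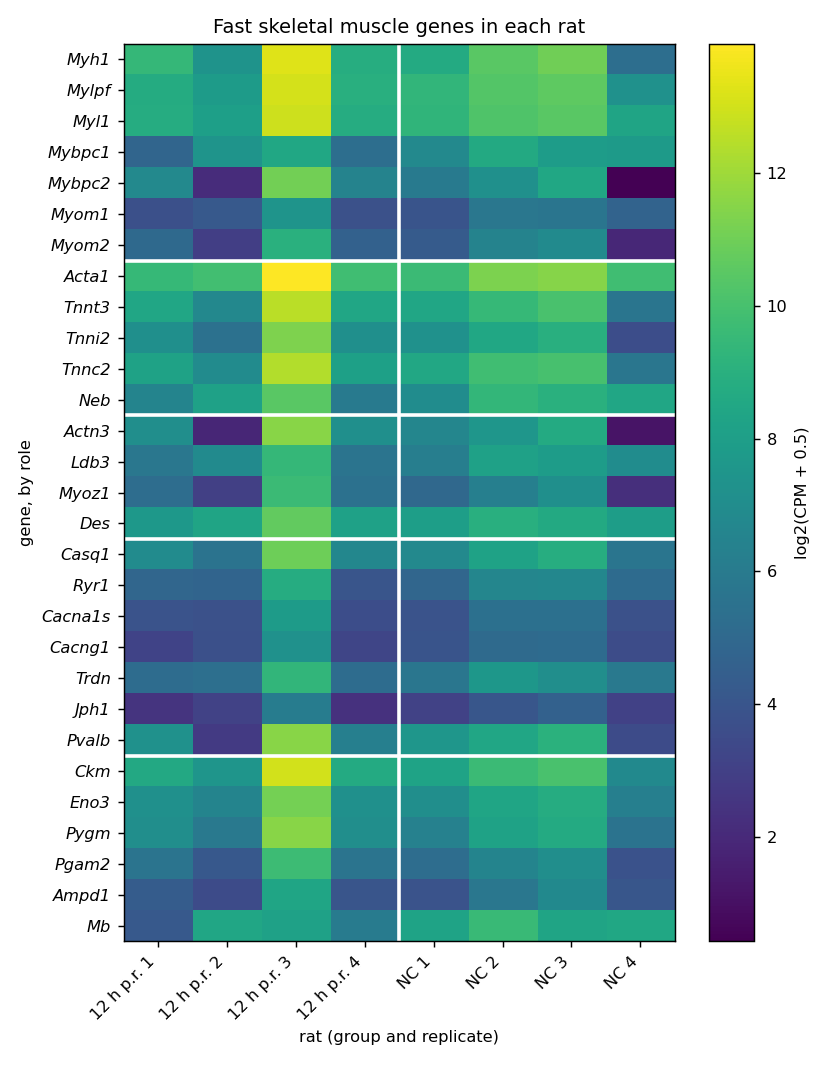
Expression of the 29 members, as log2(CPM + 0.5), with genes in rows grouped by role (white lines) and the 8 rats in columns. The column of 12 h p.r. replicate 3 is the brightest in all rows but those of Mb and Mybpc1. The darkest cells are Mybpc2, Actn3, and Myom2 in NC replicate 4 and Actn3 and Mybpc2 in 12 h p.r. replicate 2.

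The sequences before the start sites of 4 members show what genes with such different patterns carry there. *Acta1* and *Ckm* are shown as the highest members of the thin filament and of energy supply, *Actn3* because it varied most between running rats, and *Mb* because its order of rats differed from most other members. Each line gives the 250 bases before the RefSeq start site, 5′ to 3′ on the strand of the gene, in the assembly GRCr8, which is not the assembly of the counts. Capitals mark TATAAA, a CArG box (bound by serum response factor), and the muscle E-box CAGCTG (bound by MyoD family factors).

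Acta1 (chr19:68784195-68784444, minus strand): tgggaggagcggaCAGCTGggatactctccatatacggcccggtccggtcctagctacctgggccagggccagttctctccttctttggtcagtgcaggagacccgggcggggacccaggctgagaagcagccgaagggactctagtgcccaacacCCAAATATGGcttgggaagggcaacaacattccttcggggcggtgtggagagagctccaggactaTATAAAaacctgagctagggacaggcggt

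Ckm (chr1:88189211-88189460, plus strand): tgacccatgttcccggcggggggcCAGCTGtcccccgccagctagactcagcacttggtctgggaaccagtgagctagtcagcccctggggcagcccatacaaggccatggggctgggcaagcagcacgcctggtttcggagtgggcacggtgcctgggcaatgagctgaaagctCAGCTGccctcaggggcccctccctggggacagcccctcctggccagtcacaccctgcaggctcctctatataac

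Actn3 (chr1:211604402-211604651, minus strand): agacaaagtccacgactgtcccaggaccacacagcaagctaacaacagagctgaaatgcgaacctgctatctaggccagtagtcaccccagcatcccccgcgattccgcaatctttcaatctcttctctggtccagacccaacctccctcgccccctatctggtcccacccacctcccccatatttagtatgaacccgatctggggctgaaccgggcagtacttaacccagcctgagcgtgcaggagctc

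Mb (chr7:110647743-110647992, minus strand): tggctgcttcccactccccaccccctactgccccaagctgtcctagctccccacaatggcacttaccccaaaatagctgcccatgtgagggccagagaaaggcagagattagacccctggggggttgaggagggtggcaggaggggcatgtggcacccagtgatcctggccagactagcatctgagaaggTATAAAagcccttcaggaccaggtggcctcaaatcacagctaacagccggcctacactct

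CAGCTG, which reads the same on both strands, lay in this window in 9 of the 25 members with a promoter entry (12% of all 33469 RefSeq promoters): *Acta1*, *Cacna1s*, *Casq1*, *Ckm*, *Des*, *Mybpc1*, *Mylpf*, *Pgam2*, and *Pygm*. TATAAA, searched on the gene's strand only, was in 7 of the 25 members with a promoter entry (8.06% of all 33469 RefSeq promoters). A CArG box on either strand was in 2 of the 25 members with a promoter entry (1.5% of all 33469 RefSeq promoters), *Acta1* and *Ldb3*, and a MEF2 site on either strand was in 4 of the 25 members with a promoter entry (2.96% of all 33469 RefSeq promoters), *Ampd1*, *Myh1*, *Myl1*, and *Myoz1*. A MEF2 site can overlap TATAAA in its letters. *Mylpf* was matched through its RefSeq name *Myl11*. Among the 4 windows printed, that of *Actn3* held none of these motifs. These matches describe letters in a window and were not tested against expression.

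In the thick filament, *Mylpf* (ENSRNOG00000017645), the regulatory light chain of fast myosin, was at 423, 229, 8611 and 489 CPM in 12 h p.r. replicates 1 to 4 and at 650.2, 1305, 1551 and 156 CPM in NC replicates 1 to 4. *Myl1* (ENSRNOG00000013262), an essential light chain of fast myosin, was at 452, 270.3, 7799 and 441 CPM and at 627, 1183, 1432 and 317 CPM in the same order of rats. In both genes the control values lay inside the range of the running rats except for NC replicate 4 in *Mylpf*, so the groups overlapped. *Mylpf* had a group mean of 2438 ± 4117 CPM in running rats and 916 ± 633 CPM in control rats (mean ± SD, n = 4 rats each; log2 fold change of 1.41 ± 1.17 (SE), edgeR adjusted p = 0.732). The statistics of *Myl1* were close to these (log2 fold change of 1.33 ± 1.07 (SE), edgeR adjusted p = 0.721), where SE is the standard error.

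*Myh1* (ENSRNOG00000049695), a fast myosin heavy chain, was at 678, 168, 9801 and 464 CPM at 12 h p.r. and at 414, 1433, 2077 and 39.5 CPM in NC. It was lowest in NC replicate 4 and next lowest in 12 h p.r. replicate 2, and it had a log2 fold change of 1.49 ± 1.37 (SE), edgeR adjusted p = 0.761. The length that the deposited FPKM values (reads scaled by gene length and library size) imply for this row was 3.06 times that of *Myh7*, the slow myosin heavy chain. In RefSeq *Myh1* lies between *Myh2* and *Myh4*, its close relatives, so how reads of the fast myosins were divided among genes is uncertain here. *Mybpc1* (ENSRNOG00000056493), the slow form of myosin-binding protein C, was at 28.6, 169, 354 and 39.5 CPM and at 111, 403, 240.3 and 224 CPM, with NC replicate 2 highest and 12 h p.r. replicate 1 lowest (log2 fold change of −0.73 ± 0.74 (SE), edgeR adjusted p = 0.783). Its fast counterpart *Mybpc2* ranged from 0.850 CPM in NC replicate 4 and 3.95 CPM in 12 h p.r. replicate 2 to 2155 CPM in 12 h p.r. replicate 3, the widest range of the members (2536 times). The M-line genes *Myom1* and *Myom2*, whose proteins crosslink thick filaments, ranged from 12.6 to 172 CPM and from 3.31 to 522 CPM.

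In the thin filament, *Acta1* (ENSRNOG00000017786), skeletal α-actin, was at 712, 925, 15730.1 and 878 CPM at 12 h p.r. and at 798, 2472, 2823 and 902 CPM in NC. NC replicates 1 and 4 lay among the 3 lower running rats, while NC replicates 2 and 3 stood above those. The group mean was 4561 ± 7446 CPM in running rats and 1749 ± 1048 CPM in control rats (mean ± SD, n = 4 rats each; log2 fold change of 1.38 ± 1.04 (SE), edgeR adjusted p = 0.709). *Tnnc2* (ENSRNOG00000015155), which encodes the calcium-binding subunit of fast troponin, was at 293, 122, 5303 and 279 CPM and at 374, 882, 1040.4 and 53.5 CPM. *Tnnt3* (ENSRNOG00000020332), the fast troponin subunit that holds tropomyosin, was at 345, 108, 5887 and 338 CPM and at 342, 721, 1051 and 51.7 CPM. In both troponin genes the order from the top was 12 h p.r. replicate 3, NC replicate 3, and NC replicate 2, and NC replicate 4 was lowest. Their log2 fold changes were 1.35 (standard error 1.24) and 1.63 (standard error 1.26). The adjusted p in edgeR was 0.761 and 0.713. The inhibitory subunit *Tnni2* ranged from 12.0 CPM in NC replicate 4 to 2546 CPM in 12 h p.r. replicate 3. *Neb*, nebulin, which sets thin filament length and is used by both fiber types, ranged only from 63.5 CPM in 12 h p.r. replicate 4 to 1432 CPM, and NC replicate 4 was the fourth of the 8 rats at 341 CPM.

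At the Z disc, *Actn3* (ENSRNOG00000019745), an actin crosslinker restricted to fast fibers, was at 139, 3.16, 2938 and 143 CPM at 12 h p.r. and at 100.4, 184, 417 and 1.70 CPM in NC. *Myoz1* (ENSRNOG00000040122), a calcineurin-binding Z-disc protein of fast fibers, was at 37.5, 7.38, 809 and 43.2 CPM and at 31.6, 77.1, 140.0 and 4.25 CPM. Both genes were lowest in 12 h p.r. replicate 2 and NC replicate 4 and had their maximum in 12 h p.r. replicate 3, so each group held a rat at the bottom of the range. The contrast was widest here and its error as wide, for *Actn3* a log2 fold change of 2.20 ± 1.71 (SE), edgeR adjusted p = 0.716. *Des* (ENSRNOG00000019810), the intermediate filament desmin, which smooth muscle also makes, was at 202, 319.7, 1655 and 284 CPM and at 257, 487, 392 and 250.5 CPM. Its NC rats differed by only 1.95 times, the smallest such ratio of the members, and it had a log2 fold change of 0.83 ± 0.64 (SE), edgeR adjusted p = 0.713. *Ldb3*, a Z-disc scaffold of all striated muscle, ranged from 48.2 CPM in 12 h p.r. replicate 4 to 694 CPM in 12 h p.r. replicate 3.

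Among the genes of calcium handling, *Pvalb* (ENSRNOG00000006471), the cytosolic calcium buffer of fast fibers, was at 151, 6.19, 3016 and 77.5 CPM at 12 h p.r. and at 184, 344, 538 and 10.9 CPM in NC. *Casq1* (ENSRNOG00000006930), which stores calcium in the sarcoplasmic reticulum, was at 122, 47.6, 2013 and 104 CPM and at 109.6, 299, 457 and 50.1 CPM. *Trdn* (ENSRNOG00000012609), which ties calsequestrin to the release channel, was at 36.9, 40.4, 652 and 36.0 CPM and at 53.1, 192, 137 and 58.3 CPM. The 3 genes had different floors, since *Pvalb* was lowest in 12 h p.r. replicate 2, *Casq1* was lowest there too but 42.3 times under its maximum, and *Trdn* was even across the 3 lower running rats. Log2 fold changes were 1.59 for *Pvalb* (standard error 1.57), 1.32 for *Casq1* (standard error 1.17), and 0.80 for *Trdn* (standard error 0.99). Their adjusted p in edgeR was 0.775, 0.754, and 0.830. The release channel *Ryr1* reached from 15.3 to 438 CPM. Its voltage sensor in the surface membrane, *Cacna1s*, reached from 11.7 to 229 CPM, and the γ subunit of that sensor, *Cacng1*, from 8.41 to 153 CPM. *Jph1*, which holds both membranes together, was the lowest member per length (mean FPKM of 3.95), at 4.60 to 67.4 CPM.

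In energy supply, *Ckm* (ENSRNOG00000016837), muscle creatine kinase, was at 384, 179, 8338 and 418 CPM at 12 h p.r. and at 308, 787, 1060.5 and 114 CPM in NC. 12 h p.r. replicate 3 was 7.86 times above the next rat, the largest such step among the members (log2 fold change of 2.04 ± 1.23 (SE), edgeR adjusted p = 0.639). *Eno3* (ENSRNOG00000004078), the muscle form of the glycolytic enzyme enolase, was at 150.1, 93.0, 2199.6 and 146 CPM and at 135, 328, 449 and 76.5 CPM, with the same 3 rats on top (log2 fold change of 1.39 ± 1.05 (SE), edgeR adjusted p = 0.709). *Mb* (ENSRNOG00000004583), myoglobin, the oxygen store of oxidative fibers, was at 17.9, 339, 283 and 65.3 CPM and at 308, 773, 315 and 362 CPM. Here NC replicate 2 was highest, 12 h p.r. replicate 1 was lowest, and 12 h p.r. replicate 3 lay below all 4 NC rats, but 12 h p.r. replicate 2 lay within the NC range. *Mb* had a group mean of 176 ± 158 CPM in running rats and 439 ± 224 CPM in control rats (mean ± SD, n = 4 rats each; log2 fold change of −1.32 ± 0.77 (SE), edgeR adjusted p = 0.625). Its exact permutation p of 0.0857 (2-sided) was the lowest of the 29 members, whose values ran up to 0.971, where 4 rats against 4 cannot go below 0.0286. The glycogen enzyme *Pygm* ranged from 47.6 to 2971 CPM, the glycolytic enzyme *Pgam2* from 13.8 to 836 CPM, and *Ampd1*, which deaminates AMP, from 10.9 to 335 CPM.

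The division of the member reads among the roles was steadier than their sum. Thick filament and M-line genes took 23.7% of the member reads in 12 h p.r. replicate 2 and 23.1% in NC replicate 4, and 32.0 to 35.6% in the other 6 rats. Thin filament genes took 40.6% and 40.9% in those 2 rats and 32.4 to 36.1% in the others. Both rats thus stood apart from the rest in opposite directions for the 2 filaments, 1 rat from each group. Z-disc genes took 6.93 to 12.3% over the 8 rats, highest in 12 h p.r. replicate 2 and lowest in 12 h p.r. replicate 3. This order depended on *Des*, which smooth muscle also makes. *Des* was 320 of the 449 CPM of Z-disc genes in 12 h p.r. replicate 2 and 1655 of 6096 CPM in 12 h p.r. replicate 3. Genes of calcium handling took 4.28 to 7.96%, and genes of energy supply 14.9 to 19.1%. The 12 h p.r. replicate 3, with the most member reads, divided them much like NC replicate 3, with 33.5 and 34.7% on the thick filament and 35.1 and 35.4% on the thin filament.

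The rats differed in which muscle isoforms they held as well as in how much. Levels per length (FPKM) were used for these ratios, since genes of different length are compared. Of the summed *Mybpc2* (fast) and *Mybpc1* (slow) FPKM, *Mybpc2* made up 80.8, 2.49, 86.9 and 71.0% in 12 h p.r. replicates 1 to 4 and 38.1, 28.7, 61.5 and 0.412% in NC replicates 1 to 4. *Myh1* made up 99.3, 9.39, 98.4 and 67.3% and 36.2, 38.2, 57.7 and 1.70% of its sum with *Myh7*, and *Tnnt3* made up 99.6, 23.0, 99.4 and 83.0% and 58.9, 52.8, 79.9 and 9.05% of its sum with the slow *Tnnt1*. The fast isoform was thus at least 80.8% in 12 h p.r. replicates 1 and 3 and at most 23.0% in 12 h p.r. replicate 2 and NC replicate 4 in these 3 pairs. Running rats held both high and low fast shares, so the groups overlapped. *Myh7* itself was at 1.55, 529, 51.2 and 73.5 CPM in the running rats and at 238, 757, 497 and 745 CPM in the control rats. The *Myh1* share rested on 12 *Myh7* reads in 12 h p.r. replicate 1, and on 465 *Myh1* and 8769 *Myh7* reads in NC replicate 4. By reads it was 99.8% (95% exact binomial interval 99.6 to 99.9%) and 5.04% (4.60 to 5.50%) in these rats.

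**Figure D3:**
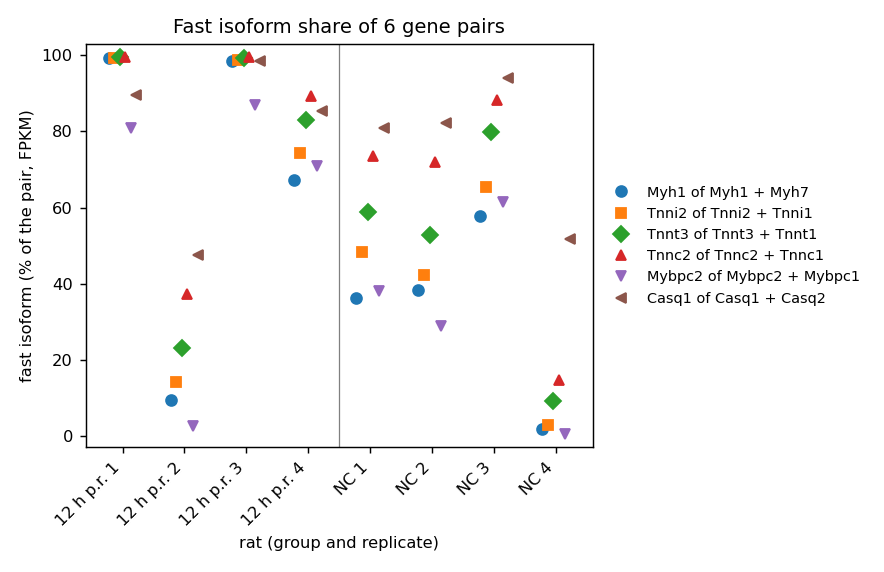
Share of the fast isoform in the summed FPKM of 6 pairs of a fast and a slow muscle gene (percent, 1 marker per pair), for each of the 8 rats. All 6 markers lie above 80% in 12 h p.r. replicates 1 and 3, and 12 h p.r. replicate 2 and NC replicate 4 have the lowest markers of every pair.

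Set against *Acta1* in the same rat, which both fiber types express, some members kept their ratio and others did not. The ratio stayed within 2 times over all 8 rats in 3 of the other 28 members and spanned more than 8 times in 10. *Cacna1s* kept between 0.346 and 0.526% of the *Acta1* FPKM, whereas *Pvalb* ran from 1.79% in 12 h p.r. replicate 2 and 3.22% in NC replicate 4 to 61.8% in NC replicate 1. *Mb* ran the other way, from 2.73% in 12 h p.r. replicate 3 and 3.81% in 12 h p.r. replicate 1 to 60.9% in NC replicate 4. 13 of the 28 members had their lowest ratio in NC replicate 4 and 14 their highest in 12 h p.r. replicate 1.

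With each rat centered on the median of its own members, 3 members had no overlap between the groups, all of them enzymes of energy supply that lay higher at 12 h p.r. Centered log2 values of *Ckm* were 1.79, 1.90, 2.33 and 2.42 at 12 h p.r. and 1.49, 1.40, 1.43 and 1.25 in NC. The mean centered difference was 0.72 for *Ckm*, 0.66 for *Pygm*, and 0.57 for *Pgam2*. For *Pgam2* the gap was narrow, with −1.44 in 12 h p.r. replicate 2 and −1.49 in NC replicate 3. Of all genes tested, 3 (0.0215%) had no overlap on this scale, and these were the 3 members themselves. The scale carries the spread of the members into every other gene, so this share is no fair measure for them. On CPM without centering, 6.06% of all genes tested had no overlap. A ratio within a sample shows unequal levels of the members and does not say which of them changed.

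The spread between rats of one group was larger in these genes than in most of the transcriptome. Over the 4 rats of a group, the SD of log2(CPM + 0.5) of the members had a median of 2.25 at 12 h p.r. (1.35 for *Des* to 3.95 for *Actn3*), against 0.23 over all genes tested. In NC the median was 1.43 (0.47 for *Des* to 3.54 for *Mybpc2*), against 0.20. Only 0.337% of all genes tested at 12 h p.r. and 0.588% in NC varied more than the median member. 28 of the 29 members had the larger SD in the running group, but they share the same libraries and are not separate observations. The share over all genes is not given for this count. Without 12 h p.r. replicate 3 the median SD of that group was 0.70, from 0.088 for *Trdn* to 3.04 for *Actn3*. Among the control rats, the highest was 1.95 to 414 times the lowest (median over members, 8.06 times). The biological coefficient of variation fitted by edgeR was 0.615 to 1.42 in the members (median, 1.03) and 0.190 in the median gene.

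**Figure D4:**
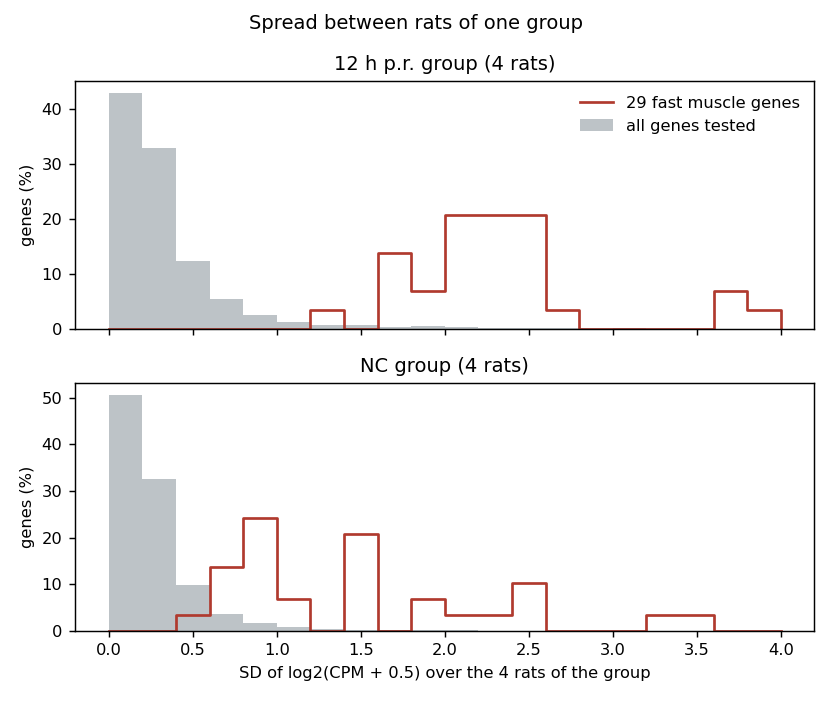
Distribution of the SD of log2(CPM + 0.5) between the 4 rats of a group, for all 13937 genes tested (grey bars, percent of genes) and for the 29 members (red line, percent of members), with 12 h p.r. above and NC below. The members lie to the right of most genes in both groups, with medians of 2.25 and 1.43.

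The groups were then compared, to ask whether muscle RNA in the tendon samples differed 12 hours after the run. In edgeR's quasi-likelihood test, adjusted by Benjamini-Hochberg for all 13937 genes, 0 of the 29 members had both an adjusted p value under 0.05 and a change of 2-fold or more (background, 0% of all genes tested), and the lowest adjusted p value among them was 0.625. At an unadjusted p value under 0.05 the number was also 0, against 9.51% of all genes tested, and limma on log2 FPKM gave 0 members at either threshold too. DESeq2's Wald test also gave 0 members past both thresholds (background, 0.138%) and 0 at an unadjusted p value under 0.05 (background, 6.47%). No member separated the groups completely, against 6.06% of all genes. The fitted log2 fold change was above 0 in 27 members (background, 54.2%) and below 0 in *Mb* and *Mybpc1*, with a median of 1.35 against 0.023 over all genes tested. The standard errors of these values were 0.64 to 1.71, while that of the median gene was 0.17.

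Group medians told the opposite of group means. In all 29 members the median of the running rats was below that of the NC rats, although the mean was above it in 27. *Acta1*, for example, had a median of 901 CPM at 12 h p.r. and 1687 CPM in NC, and *Myl1* one of 446 and 905 CPM. Without 12 h p.r. replicate 3 the log2 fold change of each of the 29 members was below 0 (background, 49.3% of genes), with a median of −1.23 and a range from −1.78 for *Pvalb* to −0.37 for *Des*. In this fit 12 members had an unadjusted p value under 0.05 and were lower at 12 h p.r., against 5.32% of all genes, and 0 had an adjusted p value under 0.05 (lowest edgeR adjusted p = 0.373). The rat left out was the highest in 27 of the 29 members, so leaving it out lowers their running values. The shares over all genes were not chosen this way and are no fair measure here. The members also share the same libraries and are not separate observations. Of these 12, 5 belong to calcium handling (*Ryr1*, *Cacna1s*, *Cacng1*, *Trdn*, and *Jph1*), 3 to the thick filament and M line (*Myl1*, *Mybpc1*, and *Myom1*), and the others are *Acta1*, *Neb*, *Ldb3*, and *Ampd1*. In 2 of the 29 members, *Ryr1* and *Trdn*, every one of the 3 running rats left was below every NC rat. This is near the share over all genes (5.2%). For *Ryr1* the gap was narrow, with 28.7 CPM in 12 h p.r. replicate 1 and 29.1 CPM in NC replicate 1. A single rat therefore set the direction of the edgeR contrast in 27 of the 29 members, while *Mb* and *Mybpc1* were below 0 with and without it. In the fit without it, with 3 running rats, no member passed the adjustment.

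**Figure D5:**
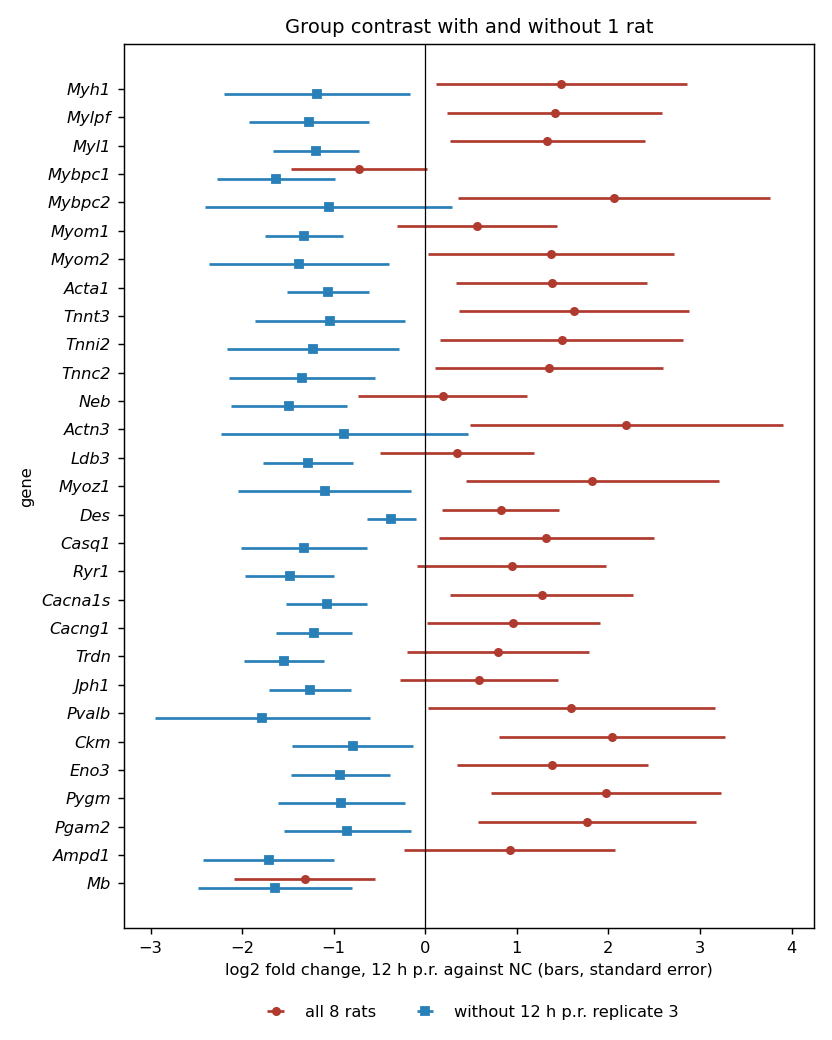
Log2 fold change of 12 h p.r. against NC for the 29 members from edgeR, with all 8 rats (red circles) and without 12 h p.r. replicate 3 (blue squares), with standard errors as bars. The red values center on 1.35 and the blue values on −1.23, and Mb and Mybpc1 are below 0 in both fits.

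Markers of other cell types were read in the same samples. The summed level of 10 tenocyte genes (including *Scx*, *Tnmd*, *Col1a1*, and *Comp*) was 55337, 55762, 20531 and 56640.0 CPM in 12 h p.r. replicates 1 to 4 and 46597, 46650.0, 52148 and 34725 CPM in NC replicates 1 to 4, with the lowest sum in 12 h p.r. replicate 3 and the next lowest in NC replicate 4, the rats with the highest and the lowest share of member reads. Collagen and decorin genes made up most of this sum, and 5 of the 10 genes were lowest in 12 h p.r. replicate 3, *Scx* and *Tnmd* not among them. By the test, 3 of the 10 were higher and 0 lower at an unadjusted p value under 0.05 (background, 5.44% and 4.08% of all genes), namely *Mkx*, *Scx*, and *Thbs4* (log2 fold changes of 0.78, 0.62, and 0.56). Without 12 h p.r. replicate 3, 5 of 10 were higher and 0 lower (background, 5.78% and 5.32% of all genes). 8 smooth muscle and pericyte genes, *Des* among them, summed to 2259.5 to 4323 CPM at 12 h p.r. and 2109 to 2590.1 CPM in NC. Without *Des*, which is a member, the other 7 summed to 2564, 1939.8, 2668 and 2276 CPM and to 1852, 2103, 1861 and 2278 CPM, so 12 h p.r. replicate 3 was then close to 12 h p.r. replicate 1. Endothelial genes summed to 1165 to 1404 CPM at 12 h p.r. and 1198 to 1356 CPM in NC. No gene of these lists was at 0 in all rats, and their part in the member values was not tested. The 13 slow-twitch genes found summed to 493, 2799, 673 and 881 CPM at 12 h p.r. and 1699, 4281, 2336 and 3663 CPM in NC. Thus 12 h p.r. replicates 1 and 3, with the highest fast shares, were their lowest rats. *Tpm3* and *Atp2a2* made up 206 and 229 CPM of the sum in 12 h p.r. replicate 1 and 205 and 221 CPM in 12 h p.r. replicate 3. At an unadjusted p value under 0.05, 3 of the 13 (*Myl2*, *Tpm3*, and *Atp2a2*) were lower at 12 h p.r. (background, 4.08% of all genes). Without 12 h p.r. replicate 3, 1 of the 13 was lower (background, 5.32%). The median log2 fold change of the 13 was −1.84 with all 8 rats and −1.53 without 12 h p.r. replicate 3.

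The summed level of other genes of the muscle fiber was also highest in 12 h p.r. replicate 3, with 27429 CPM there and 3980.3 to 9526 CPM elsewhere. Of 57 such genes listed, 54 were tested, 40 of them with a log2 fold change above 0 and a median of 0.48. 0 were higher and 1 was lower at an unadjusted p value under 0.05 (*Sln*, a peptide that inhibits the calcium pump, log2 fold change −2.13, edgeR adjusted p = 0.477). Without 12 h p.r. replicate 3 the median was −0.88, and 20 of the 54 were lower and 0 higher at an unadjusted p value under 0.05, against 5.32% and 5.78% of all genes. Here too the rat left out had the highest sum, so these shares are no fair measure.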

How the data were processed

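Stranded libraries were made from polyadenylate mRNA of 8 right Achilles tendons, 1 per rat. Per the labels, HISAT2 2.1.0, featureCounts 1.6.3, and DESeq2 1.30.1 were used by the authors with the assembly Rnor_6.0. The deposited count table holds raw reads per Ensembl gene. Whether counting used the strand or included reads with several matches is not given in the sources used here. The authors' deposited FPKM values equal counts divided by gene length and by the DESeq2 size factor of each rat (checked on the files). A further table with the authors' own comparison (log2 fold change, p-value, and adjusted p-value) was not used.

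Genes were filtered with filterByExpr, scaled by TMM, and tested with the quasi-likelihood test of edgeR 4.0.16 (R 4.3.3), with Benjamini-Hochberg adjustment over 13937 genes. On simulated counts of 13937 genes in this design, with 200 genes changed by 2 on the log2 scale, the test called 195 genes, 185 of them changed and 10 not, none with the wrong sign. The changed genes were drawn at random, with the dispersions of all genes (median biological coefficient of variation, 0.190). In the members this median was 1.03, and no single outlying rat was simulated, so the recovery does not apply to the members. Single genes were also tested by exact permutation of log2(CPM + 0.5). Alternatives used DESeq2 1.42.0, RLE and upper-quartile factors, other filters, limma 3.58.1 on log2 FPKM, a replicate block, and leaving out each rat. Descriptions used Python 3.11.15.

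Members and lists were chosen with earlier results of these data known, so no list was tested as a set. Values in every rat are given for the 3 members of each role with the highest mean FPKM, and for *Myh1* and *Mybpc1*. Of the other lists, genes with an unadjusted p value under 0.05 are named. So are the 2 genes of each list with the highest mean FPKM, *Myh7*, and genes among the 10 most like the members. Some items of these lists are not reported here. Further genes, such as *Myf6*, were chosen after their values were seen. Promoter sequences are from RefSeq (GRCr8). Nothing says that rats of one number share a litter or day, and p-values measure the spread between these rats.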

Additional observations from a re-analysis of the deposited data

Results flagged for a closer look

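Among 60 groups of 4 values (29 members and their summed share of reads, in each group of rats), 9 had 1 rat far from the other 3, and all 9 were 12 h p.r. replicate 3 on the high side. Chance alone does this in about 5% of single groups, but these groups share the same 8 libraries and are not separate, so the 9 count 1 library many times. The share of reads on the members was 7.92% in this rat, and the nearest running rat was at 0.497%. Values of log2(CPM + 0.5) in this rat, with the nearest running rat, were 12.93 and 8.82 for *Myl1*, 7.43 and 4.20 for *Myom1*, 13.94 and 9.85 for *Acta1*, 7.84 and 3.91 for *Cacna1s*, 7.26 and 3.75 for *Cacng1*, 9.35 and 5.36 for *Trdn*, 11.10 and 7.23 for *Eno3*, 8.39 and 4.34 for *Ampd1*. The members with the widest spread, such as *Actn3* and *Mybpc2*, were not among them, since 12 h p.r. replicate 2 was far below the other running rats there as well. What set this rat apart was not tested.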

How the results depend on the processing

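RLE and upper-quartile factors, both other filters, and DESeq2 kept the direction of all 29 log2 fold changes, and no alternative in edgeR, DESeq2, or limma gave a member past both thresholds. The median log2 fold change of the members ran from −1.23 without 12 h p.r. replicate 3 to 1.77 without NC replicate 3 when 1 rat was left out, and the number of members lower at an unadjusted p value under 0.05 from 0 to 12. Limma on log2 FPKM gave a median of 0.21. Centering on the member median left 0.18, but it takes out most of any shift that the members share, so it is no estimate of that shift. With 1 rat left out, log2 fold changes ran from −1.18 to 2.14 for *Myh1*, from −1.27 to 1.79 for *Mylpf*, from −1.20 to 1.70 for *Myl1*, from −1.06 to 3.06 for *Mybpc2*, from −1.33 to 0.89 for *Myom1*, from −1.38 to 2.01 for *Myom2*, from −1.06 to 1.74 for *Acta1*, from −1.04 to 2.16 for *Tnnt3*, from −1.23 to 2.04 for *Tnni2*, from −1.35 to 1.77 for *Tnnc2*, from −1.49 to 0.56 for *Neb*, from −0.88 to 3.08 for *Actn3*, from −1.28 to 0.69 for *Ldb3*, from −1.10 to 2.58 for *Myoz1*, from −0.37 to 1.12 for *Des*, from −1.33 to 1.90 for *Casq1*, from −1.48 to 1.31 for *Ryr1*, from −1.08 to 1.62 for *Cacna1s*, from −1.22 to 1.31 for *Cacng1*, from −1.54 to 1.21 for *Trdn*, from −1.26 to 1.00 for *Jph1*, from −1.78 to 2.17 for *Pvalb*, from −0.79 to 2.53 for *Ckm*, from −0.93 to 1.84 for *Eno3*, from −0.92 to 2.55 for *Pygm*, from −0.85 to 2.34 for *Pgam2*, from −1.71 to 1.74 for *Ampd1*. The low end was the fit without 12 h p.r. replicate 3 in each of these, and *Neb* was also below 0 without NC replicate 1. On log2(FPKM + 1), with or without the filter on low values, and on log2(FPKM + 0.1), 9 members turned negative, with values of −0.17 and −0.26 for *Myom1*, −0.56 and −0.65 for *Neb*, −0.34 and −0.38 for *Ldb3*, −0.057 and −0.22 for *Ryr1*, −0.058 and −0.096 for *Cacng1*, −0.26 and −0.31 for *Trdn*, −0.062 and −0.22 for *Jph1*, −0.18 and −0.19 for *Pvalb*, −0.067 and −0.10 for *Ampd1*. These fits average logs, which weigh 1 high rat less. With the replicate block, 2 members (*Mb* and *Mybpc1*) were lower at an unadjusted p value under 0.05 (3.05% of all genes), and 8 turned negative, *Myom1* at −0.27, *Neb* at −0.69, *Ldb3* at −0.42, *Ryr1* at −0.28, *Cacng1* at −0.087, *Trdn* at −0.37, *Jph1* at −0.19, *Ampd1* at −0.0084. Nothing says that same-numbered rats are paired. Their deviations from the group means correlated at 0.070, −0.19, 0.12 and 0.082 over genes. Rats of unlike number reached 0.31 (12 h p.r. replicate 2 with NC replicate 4), so these values cannot show or exclude a shared litter or day. By reads in place of FPKM, the *Myh1* share of *Myh1* and *Myh7* was 99.8, 24.1, 99.5 and 86.3% in 12 h p.r. replicates 1 to 4 and 63.5, 65.4, 80.7 and 5.04% in NC replicates 1 to 4. The order of the rats could not change, since reads and FPKM differ here only by gene lengths that are the same in every rat. The lowest counts of members in any rat were 10 reads for *Mybpc2* and 20 for *Actn3*, and no fit at equal depth was made.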

Other observations

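Among protein-coding genes outside every list, those whose log2(CPM + 0.5) over the 8 rats was most like the mean of the members included *Smtnl2*, *Lsmem1*, *Kcnc4*, *Mlf1*, *Igfn1*, *Ywhae*, *Rabep2*, *Asb9*, and *Napa*, with Pearson r from 0.981 to 0.990. Leaving out the 2 rats farthest from the median (12 h p.r. replicate 3 and NC replicate 3), r over the 6 others was 0.916 to 0.973. *Mlf1* was at 20.2, 11.9, 304 and 18.2 CPM in 12 h p.r. replicates 1 to 4 and at 28.1, 66.1, 72.1 and 16.4 CPM in NC replicates 1 to 4. In contrast, *Ywhae* and *Napa*, which most cells express, ran from NC replicate 4 to 12 h p.r. replicate 3 within a narrow range, 367 to 458 CPM and 54.6 to 76.5 CPM. In all, 229 genes that are not members reached r of 0.9, as did 21 of the members, each of which is part of the mean it was compared with. These correlations share the same 8 libraries, are dominated by 1 rat, and are descriptions only.

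*Myf6*, a muscle transcription factor kept in mature fibers, was at 4.27, 6.98, 58.0 and 3.38 CPM at 12 h p.r. and 7.94, 25.5, 12.6 and 14.7 CPM in NC, with 12 h p.r. replicate 3 highest as in most members. *Myh3*, the embryonic myosin heavy chain, was at 0.777, 26.2, 13.6 and 11.3 CPM and 33.0, 121, 45.8 and 45.9 CPM, with NC replicate 2 highest (log2 fold change −2.24, standard error 0.72, edgeR adjusted p = 0.433). At an unadjusted p value under 0.05, 5.44% of all genes tested were higher and 4.08% lower. Developmental fiber genes had 0 higher and 1 lower of 4 tested at this threshold (median log2 fold change −0.70), namely *Myh3*. Genes of the neuromuscular junction had 1 higher and 0 lower of 7 tested (median log2 fold change 0.086), namely *Rapsn*, and those of the myotendinous junction, where fibers meet the tendon, had 0 higher and 0 lower of 7 tested (median log2 fold change −0.085). Summed levels of the myotendinous genes were 889 to 1099.7 CPM at 12 h p.r. and 958 to 1081 CPM in NC, of which *Itgb1*, expressed by most cells, made up 563 to 703 CPM. *Ankrd1* ranged from 3.62 to 82.3 CPM and *Col22a1* from 6.81 to 27.3 CPM.

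For other cell types, the counts at an unadjusted p value under 0.05 were 1 higher and 1 lower of 7 tested (median log2 fold change 0.088) for endothelial genes (*Egfl7* and *Emcn*) and 1 higher and 0 lower of 8 tested (median log2 fold change 0.28) for smooth muscle and pericyte genes (*Tagln*). The background for these counts was 5.44% higher and 4.08% lower of all genes tested. Leukocyte genes had 0 higher and 0 lower of 6 tested (median log2 fold change −0.34), adipocyte genes had 0 higher and 0 lower of 6 tested (median log2 fold change −0.13), and cartilage and bone genes had 0 higher and 0 lower of 5 tested (median log2 fold change −0.52). Heart muscle genes had 0 higher and 1 lower of 3 tested (median log2 fold change −0.62), namely *Myh6*, and red blood cell genes had 0 higher and 0 lower of 3 tested (median log2 fold change −0.87).

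The 2 genes of each list shown with the highest mean FPKM, with the edgeR log2 fold change of 12 h p.r. against NC, were *Tnnt1* (−1.84) and *Tnnc1* (−1.84) for slow-twitch fibers, *Aldoa* (1.15) and *Tpm1* (1.23) for other muscle fiber genes, *Actc1* (0.0033) and *Myh3* (−2.24) for developmental fibers, *Rapsn* (0.68) and *Lrp4* (−0.12) for the neuromuscular junction, *Itgb1* (−0.10) and *Itga7* (0.20) for the myotendinous junction, *Myl4* (0.71) and *Tnni3* (−0.62) for heart muscle, *Dcn* (0.29) and *Col1a1* (−0.11) for tenocytes. They were *Tagln* (0.34) and *Acta2* (0.22) for smooth muscle and pericytes, *Emcn* (−0.40) and *Egfl7* (0.40) for endothelium, *Lyz2* (−0.87) and *Csf1r* (−0.39) for leukocytes, *Fabp4* (−0.059) and *Adipoq* (−0.35) for adipocytes, *Col11a2* (−0.40) and *Col2a1* (−1.76) for cartilage and bone, *S100b* (0.027) and *Pmp22* (−0.49) for Schwann cells, *Hbb* (−0.73) and *Hba-a2* (−0.87) for red blood cells. Of these genes, *Tagln*, *Myh3*, *Rapsn*, *Egfl7*, *Emcn*, and *Pmp22* had an unadjusted p value under 0.05, and none an adjusted p value under 0.05.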
